A study of Mus musculus with 2 samples.

Results

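Band 3, the anion exchanger encoded by Slc4a1, was examined with 4 proteins of the erythrocyte membrane complex that holds it to the spectrin skeleton through ankyrin. The other 4 were the band 3 binding protein encoded by Epb4.2 (now Epb42), ankyrin-1 (Ank1), the Rh-associated glycoprotein (Rhag) and the adhesion molecule ICAM-4 (Icam4). Every probe whose gene name in the array files equalled 1 of these 5 names was taken, which gave 10 of the 41174 probes on the array, for 5 of the 16615 genes and transcripts tested. Ank1 had 5 probes, Epb4.2 had 2, and Slc4a1, Rhag and Icam4 had 1 each. A probe was tested where, on each array, 1 channel or both stood well above background. All 10 probes of the complex passed this filter, among 24471 probes that did, and each of the 10 was well above background in both channels on both arrays and saturated in none.

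RNA came from G1E-ER-GATA-1, a mouse erythroid cell line that lacks its own GATA-1, the transcription factor that drives red cell maturation, and carries GATA-1 joined to an oestrogen receptor domain that β-estradiol activates. One group received siRNA against ETO2, a corepressor encoded by Cbfa2t3 that binds GATA-1 complexes, and the other received control siRNA. Both groups were GATA-1-null, carried the ER-GATA-1 fusion and were kept in β-estradiol for 24 h after transfection, so that the comparison asks how the genes respond to less ETO2 while GATA-1 is active. Each of 2 arrays held both groups, with ETO2 siRNA RNA in Cy3 (green) and control siRNA RNA in Cy5 (red), at 1.2 µg of total RNA per dye. The labels number the arrays as replicates without stating separate cultures, so the p-values may measure technical spread only. The dyes were not swapped, so a dye effect of a probe and an effect of the siRNA cannot be told apart.

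Band 3 exchanges chloride for bicarbonate across the red cell membrane and is also its main integral anchor for the skeleton. Ankyrin-1 ties the inner end of band 3 to β-spectrin, the Epb42 protein strengthens that link, and Rhag, the Rh proteins and ICAM-4 belong to the assembly around it. Inherited loss of band 3, ankyrin-1 or the Epb42 protein causes hereditary spherocytosis or related anaemias in humans. Genes of this complex are switched on as erythroid precursors mature.

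The probes differ in sequence, and those of Ank1 did not all give the same result, so the first 30 of the 60 bases of each follow as the array design lists them. Slc4a1 lies on mouse chromosome 11, Epb42 on 2, Ank1 on 8, Rhag on 17 and Icam4 on 9 in the RefSeq table of GRCm38.p6. The position of a probe within its transcript was not determined here.
Slc4a1 A_51_P196972: cccacaaggtctaagaaaagcgtttgccat
Epb4.2 A_52_P73126: taacataggacctgaaagaatagactaaac
Epb4.2 A_51_P122535: tataatgggatgttctgactaccttttcag
Ank1 A_51_P269375: gtctccacttgatgcctagagaatgctgca
Ank1 A_52_P562817: catgttcaatagaggaagaggttttctaaa
Ank1 A_52_P655842: ttaccaagaagatcattcgcaaagtcgtcc
Ank1 A_52_P42857: cagaacactggactgggataaacagggttc
Ank1 A_52_P350893: ttctcagcgagtcgcggctgggttttacca
Rhag A_51_P346575: agccgtctatcccaggctctaagaatgaag
Icam4 A_51_P235726: ctggagcgcttcaccggttcagatttggct

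Signal for the siRNA's target was modestly lower. Cbfa2t3 (NM_009824) fell to 74.6% of the control siRNA level on one probe (log2 ratio -0.42 ± 0.05, SD, n = 2; limma adjusted p = 9.72e-05) and to 85.6% on the other (-0.23 ± 0.0046; adjusted p = 0.0106). On the scanner software's processed signals neither probe passed, at -0.37 (limma adjusted p = 0.0534) and -0.14 (0.273). Median raw spot signals were 77.5 to 82.8 scanner units for ETO2 siRNA RNA and 105 for control siRNA RNA, over backgrounds of 44 to 47. Of all tested probes, 39.3% passed the limma test at an adjusted p under 0.05, with 18.7% higher and 20.6% lower, so that passing is in itself common. The labels call the cells both erythroid and murine ES cells. Of 7 erythroid markers measured, the brightest probes of Hba-a1 and Hbb-b1 were saturated in both channels and show no direction, and other Hbb-b1 probes reached down to -0.21. The other 5 were higher after ETO2 siRNA on their brightest probes. Under median centring, however, Klf1 had -0.39, or -0.10 relative to the median of all tested probes. The 7 summed to 256081 to 282846 in ETO2 siRNA cells and 154234 to 155581 in control siRNA cells. These sums include the 2 saturated genes, so no difference between the groups is read from them. The 5 unsaturated ones summed to 81656 to 88448 in ETO2 siRNA cells and 63424 to 66988 in control siRNA cells. Of 8 ES cell markers, Pou5f1, Nanog, Sox2, Zfp42 and Dppa3 did not pass the brightness filter, and the 3 measured summed to 518 to 539 in ETO2 siRNA cells and 546 to 598 in control siRNA cells. Macrophage markers (4 of 7 measured, none past the test) summed to 465 to 494 in ETO2 siRNA cells and 487 to 501 in control siRNA cells. Mast cell markers (5 of 7 measured, 1 higher and 1 lower) summed to 608 to 622 in ETO2 siRNA cells and 858 to 876 in control siRNA cells. Megakaryocyte markers (6 of 7 measured, 2 higher and 1 lower) summed to 15534 to 18194 in ETO2 siRNA cells and 11977 to 14466 in control siRNA cells. The part of cell makeup in the results on the band 3 complex was not tested. More maturing cells and more RNA per cell cannot be told apart in such bulk RNA.

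Slc4a1, the transporter at the centre of the complex, had the highest log2 ratio of all 24471 tested probes. Its probe (NM_011403) had normalized signals of 58850 and 60986 in ETO2 siRNA cells, against 8273 and 8018 in control siRNA cells on arrays 1 and 2. Signals in the groups did not overlap and differed far more than the arrays did. How common such separation is among all tested probes is not given here. Here and below it therefore only describes the signals. The log2 ratio was 2.83 on array 1 and 2.93 on array 2, a mean of 2.88 ± 0.07 (SD, n = 2; limma adjusted p = 1.75e-13), or 7.36-fold higher after ETO2 siRNA. No other tested probe came within 0.1 of it over the ratios of both arrays. Even before normalization the ETO2 siRNA channel was the brighter, at 44333 and 40845 scanner units against 11545 and 11389 in the control siRNA channel. The highest raw value lay below the saturation limit of 65203, so the ratio was not capped by the scanner.

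**Figure D1:**
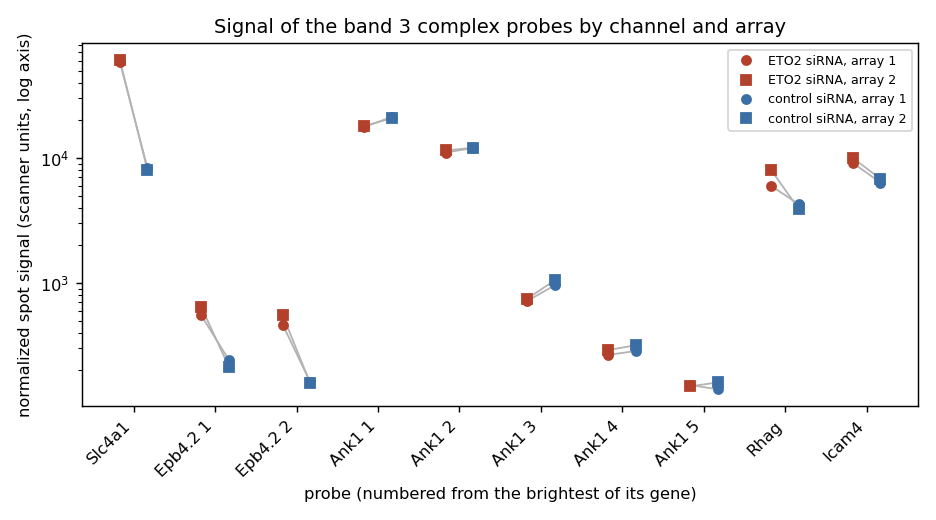
Normalized signal (log10 axis, scanner units) of each of the 10 probes in the ETO2 siRNA channel and the control siRNA channel, with 1 point per array. Slc4a1 stands at 58850 and 60986 with ETO2 siRNA against 8273 and 8018 with control siRNA, while the channels of the Ank1 probes lie close together.

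Epb4.2, whose product binds band 3 and ankyrin on the inner face of the membrane, rose on both of its probes (NM_013513). The brighter probe, A_52_P73126, had normalized signals of 551 and 645 in ETO2 siRNA cells, against 242 and 213 in control siRNA cells. Its log2 ratios of 1.19 and 1.60 averaged 1.39 ± 0.29 (SD, n = 2; limma adjusted p = 6.58e-09), a 2.63-fold higher signal. The probe A_51_P122535 had 465 and 554 in ETO2 siRNA cells, against 160 and 157 in control siRNA cells. Groups did not overlap on either probe. Log2 ratios of 1.54 and 1.82 on A_51_P122535 gave a mean of 1.68 ± 0.20 (n = 2; limma adjusted p = 3.13e-10), a 3.20-fold higher signal. Both probes were therefore more than 2-fold higher on each array, as was Slc4a1, and 31 of the 24471 tested probes (0.127%) met that rule. These 3 stood at ranks 1, 5 and 8 from the top of the log2 ratios.

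**Figure D2:**
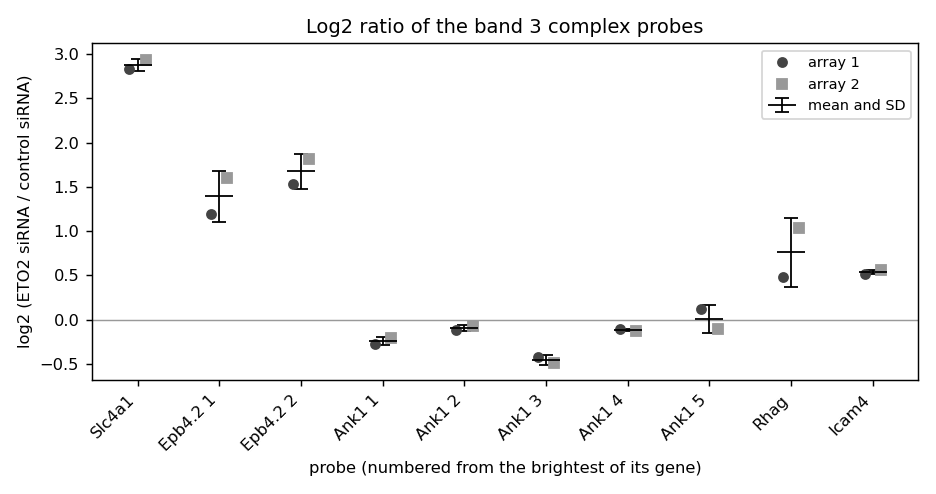
Log2 ratio (ETO2 siRNA over control siRNA) of each probe, with 1 point per array and a bar for the mean and its SD (n = 2). Slc4a1, both Epb4.2 probes, Rhag and Icam4 lie above 0 on both arrays, and 4 of the 5 Ank1 probes lie below 0 on both.

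Ank1, the linker that ties band 3 to spectrin, went the other way or did not pass. Its brightest probe, A_51_P269375 (NM_031158), had normalized signals of 17662 and 17993 in ETO2 siRNA cells, against 21360 and 20833 in control siRNA cells. The groups did not overlap, but the distance was small, with log2 ratios of -0.27 and -0.21 and a mean of -0.24 ± 0.04 (SD, n = 2; limma adjusted p = 0.00695). That is 0.845 of the control siRNA level, and 1385 other tested probes lay within 0.1 of it over both arrays. The lowest ratio was on A_52_P655842, with 717 and 747 in ETO2 siRNA cells against 957 and 1049 in control siRNA cells. It averaged -0.45 ± 0.05 (n = 2; limma adjusted p = 5.27e-05), or 0.730 of the control siRNA level. The remaining probes did not pass: A_52_P562817 had a log2 ratio of -0.10 ± 0.03 (limma adjusted p = 0.248), A_52_P42857 of -0.11 ± 0.01 (0.167) and A_52_P350893 of 0.01 ± 0.16 (0.937). On A_52_P350893 the arrays gave opposite signs, 0.12 and -0.10. Which transcript forms of Ank1 each probe reads was not determined here. Using the scanner software's own processed signals, no Ank1 probe passed, and the values of the 2 that fell were -0.13 and -0.15.

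Rhag, a channel-like protein that the Rh proteins need to reach the membrane, rose on its 1 probe (NM_011269), with more spread between arrays than any other probe of the complex. Normalized signals were 5960 and 7979 in ETO2 siRNA cells, against 4266 and 3889 in control siRNA cells. The groups did not overlap, although array 2 gave the larger distance. The log2 ratio was 0.48 on array 1 and 1.04 on array 2, a mean of 0.76 ± 0.39 (SD, n = 2; limma adjusted p = 1.56e-05), or 1.69-fold higher (1.40-fold and 2.05-fold on the arrays). Under median centring the log2 ratio was 0.23 and still passed. Before normalization the order depended on the array, with 4534 and 5596 scanner units in the ETO2 siRNA channel against 5736 and 5395 in the control siRNA channel.

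Icam4, a ligand for integrins that helps erythroblasts bind macrophages and other cells, also rose. Its probe (NM_023892) had normalized signals of 9134 and 10026 in ETO2 siRNA cells, against 6368 and 6808 in control siRNA cells. The arrays gave nearly the same log2 ratio, 0.52 and 0.56, and the groups did not overlap. The mean was 0.54 ± 0.03 (SD, n = 2; limma adjusted p = 9.21e-06), a 1.45-fold higher signal, and 176 other tested probes lay within 0.1 of it. The raw signals ran the other way, at 6927 and 6922 scanner units with ETO2 siRNA against 8662 and 9502 with control siRNA. With median centring in place of loess, Icam4 had a log2 ratio of -0.01, or 0.27 relative to the median of all tested probes. On the scanner software's processed signals it had 0.36 and missed the threshold (limma adjusted p = 0.0567).

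**Figure D3:**
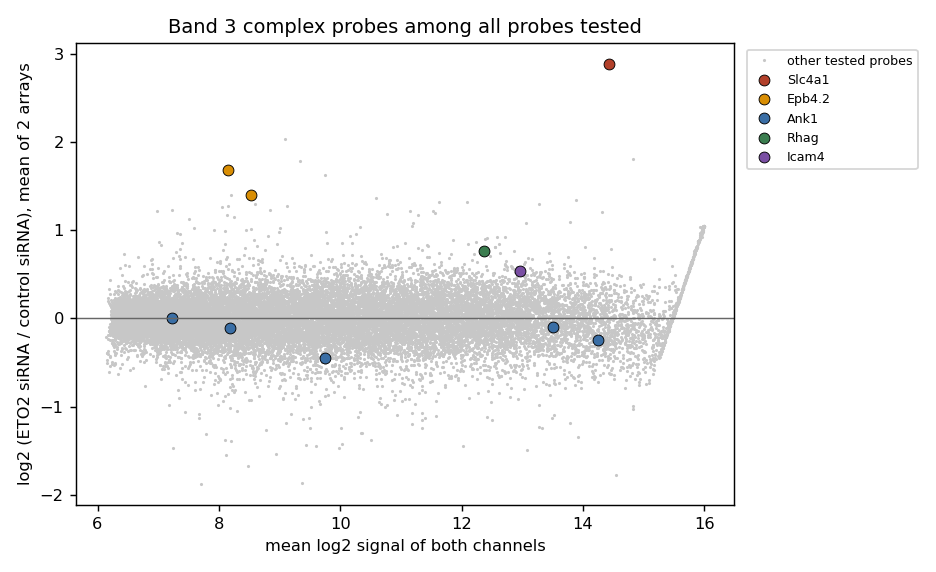
Mean log2 ratio over 2 arrays against the mean log2 signal of both channels for all 24471 tested probes, with the 10 probes of the complex in colour. Slc4a1 stands above every other probe, at 2.88, while the Ank1 probes lie within the band of most probes; the slanted line of points at the right holds probes saturated in the control siRNA channel.

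Counted by probe, 5 of the 10 rose (18.7% of all tested probes did), 2 fell (20.6% of all did, so that this share is the usual one) and 3 missed the threshold, and the median log2 ratio was 0.27 against -0.01 over all tested probes. The scanner software's error model, in the deposited array files, gave Slc4a1 a p of 5.60e-18 and 2.22e-18 on arrays 1 and 2, Icam4 0.123 and 0.0566, and the Ank1 spots 0.283 to 0.887. Probes of 1 gene share a transcript, and 5 of the 10 are Ank1, so these counts lean on that gene. Counted by gene on the brightest probe, 4 of the 5 rose and Ank1 fell, although 3 of the 5 Ank1 probes did not pass. Of all 16615 genes and transcripts counted this way, 3049 rose and 3690 fell. On processed signals 4 of the 10 probes rose (5.32% of all tested probes did), none fell (5.01% of all did) and 6 did not pass. Median centring gave 4 higher (3.02% of all tested probes), 4 lower (63.1% of all) and 2 that did not pass. The 4 were Slc4a1, both Epb4.2 probes and Rhag, which passed in the same direction under every setting that allowed a test.

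Log2 ratios of the genes were set against each other within each array. The added offset and the normalization act unequally on dim and bright probes, and at offset 0 Epb4.2 had 1.65 in place of 1.39. Slc4a1 exceeded Epb4.2 by 1.64 and 1.33 on the log2 scale on arrays 1 and 2, with the brightest probe of each gene. Epb4.2 exceeded Rhag by 0.71 and 0.56. Rhag and Icam4 were not separated: their difference was -0.04 on array 1 and 0.48 on array 2, and their ranges over the arrays overlapped. Icam4 in turn exceeded Ank1, since Ank1 minus Icam4 was -0.79 and -0.77. The order Slc4a1, Epb4.2, Rhag, Icam4, Ank1 therefore held on array 2, and on array 1 apart from Rhag and Icam4. The distance between band 3 and its own anchor averaged 3.12. These differences are descriptions of 2 arrays and were given no test.

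**Figure D4:**
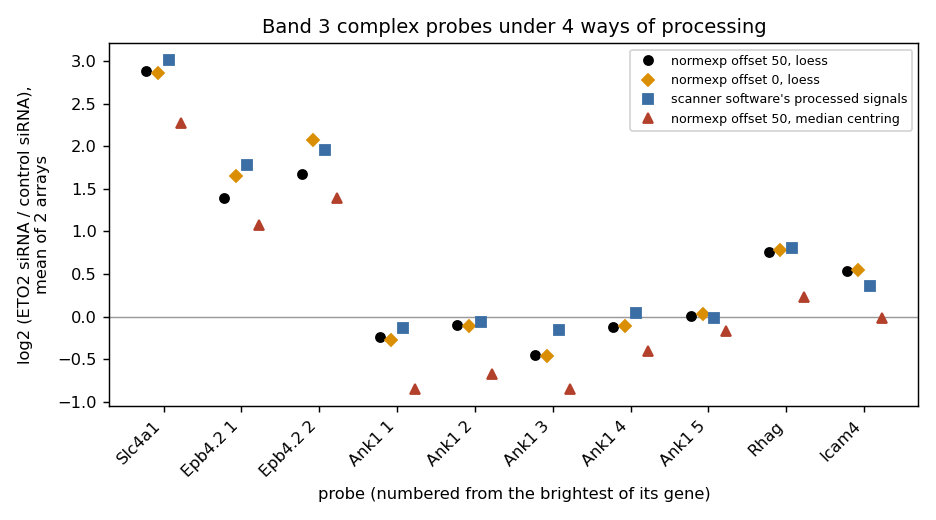
Mean log2 ratio of each probe (numbered from the brightest of its gene) under 4 ways of background correction and normalization. Slc4a1 lies between 2.27 and 3.01 and both Epb4.2 probes stay above 1, whereas Icam4 reaches -0.01 under median centring.

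Outside the complex and among probes with an ordinary gene symbol, the genes closest in ratio to Slc4a1 over the 2 arrays were still distant. They were Slc25a37, the mitochondrial iron importer mitoferrin-1, at a log2 ratio of 1.81 and a distance of 1.51, and Rragd, a Rag GTPase, at 1.79 and 1.54. Tmod1, tropomodulin-1, which caps actin filaments of the membrane skeleton, followed at 1.63 and 1.77 on one probe and 1.39 and 2.10 on another, and Add2, β-adducin of the same skeleton, at 1.36 and 2.14. Around the brighter Epb4.2 probe the nearest was that second Tmod1 probe, at a distance of 0.0839. Pigq, an enzyme of GPI anchor synthesis, came next at 0.0917 and 0.168 on its probes, then Erfe, the erythroblast hormone erythroferrone, at 0.225 and Hba-x, an embryonic α-like globin, at 0.250. These distances rest on 2 arrays and describe likeness of size only.

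By brightest probe, 3 of 5 other genes of the ankyrin complex rose (18.7% of all tested probes did) and 2 missed the threshold. The median log2 ratio was 0.50. Under median centring 2 were higher and 2 lower (3.02% and 63.1% of all tested probes were), and the list's median was -0.08. All tested probes had a median of -0.28 in that setting, and the list's median lay 0.21 above it. Rhd, the Rh polypeptide, had normalized signals of 16582 and 16299 in ETO2 siRNA cells against 11343 and 11848 in control siRNA cells. Its log2 ratio was 0.50 ± 0.06 (SD, n = 2; limma adjusted p = 2.01e-05). Under median centring Rhd had -0.08, or 0.21 relative to the median of all tested probes. Sptb, β-spectrin, to which ankyrin-1 binds, gave 4 probes that did not agree, with log2 ratios of -0.02, -0.22, 0.23 and 0.98 and limma adjusted p-values of 0.812, 0.0113, 0.0096 and 2.38e-08. Cd47, a membrane protein tied to the Rh complex, likewise had -0.10, 0.01, 0.41 and -0.10 on 4 probes, of which the probe at 0.41 passed. Median centring put that probe at -0.15 and the Sptb probe at 0.23 at -0.29. Relative to the median of all tested probes these were 0.14 and -0.0034.

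Of 7 enzymes and kinases that bind or act on band 3, 6 were measured, while Syk did not pass the brightness filter. The probes used for Car2 (carbonic anhydrase 2), Aldoa (aldolase), Gapdh and Prdx2 (peroxiredoxin 2) were saturated in the control siRNA channel on both arrays. Their control level is known only as a bound, so neither a fold nor a direction is given for these 4 on these probes. Of the other 2, Lyn, a kinase that phosphorylates band 3, had a log2 ratio of -0.31 ± 0.03 (SD, n = 2; limma adjusted p = 0.00114) and passed as lower. Its other probe had 0.11, and on processed signals the first had -0.17 and did not pass (limma adjusted p = 0.208). Pfkm, a phosphofructokinase, had -0.14 and did not pass. With saturated probes left out, 3 of the 7 genes were measured, with 1 higher and 1 lower (Lyn). In that setting 4237 of all 24031 tested probes were higher and 4950 lower. The higher gene was among the 4 with a saturated brightest probe, read on a less bright probe, and is not named here.

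In the junctional complex and other red cell membrane proteins, 8 of 15 genes rose, 5 fell (18.7% and 20.6% of all tested probes did) and 2 missed the threshold, and the median log2 ratio was 0.30. Tmod1 rose most within this list, at 1.63 ± 0.05 (SD, n = 2; limma adjusted p = 1.16e-10). Its normalized signals were 1472 and 1547 in ETO2 siRNA cells, against 490 and 488 in control siRNA cells. Add2 had 0.73 on its brightest probe, and its 4 tested probes ranged from 0.47 to 1.36. Dmtn, dematin, which bundles actin, had 0.58 ± 0.04, or 0.11 and no longer past the test under median centring (limma adjusted p = 0.231). Gypc, glycophorin C, which anchors the junctional complex, had 0.54 ± 0.18. Under median centring Gypc had -0.07, or 0.22 relative to the median of all tested probes.

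Of 24 paralogues of the 5 genes, 18 were measured. Among these 2 rose, 5 fell and 11 missed the threshold, shares near those of all tested probes (18.7% higher, 20.6% lower), and the median log2 ratio was -0.09. Icam2, an endothelial and leukocyte adhesion molecule, had 8537 and 8602 in ETO2 siRNA cells against 14878 and 14062 in control siRNA cells, a log2 ratio of -0.76 ± 0.07 (SD, n = 2; limma adjusted p = 3.32e-07). Icam1, which binds leukocyte integrins, had -0.73 ± 0.10 (limma adjusted p = 5.88e-07) and -0.44 on its other probe. Icam4 lies between Icam1 and Icam5 on chromosome 9, and Icam5 had -0.43 ± 0.10 (limma adjusted p = 0.000117), or -0.25 and not past the test on processed signals (0.123). Within each array Icam4 thus stood above both flanking genes. Slc4a3, another anion exchanger, had 0.67, at a dim 143 and 159 with ETO2 siRNA against 93 and 96 with control siRNA. Slc4a5, a bicarbonate cotransporter, had -0.50, and its ETO2 siRNA channel was well above background on 1 array.

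Of 9 integrin genes whose products can bind ICAM-4, 7 were measured. By their brightest probes none was higher past the threshold, 3 fell (20.6% of all tested probes did) and 4 missed it, and the median log2 ratio was -0.17. Itgal, the α chain of LFA-1, had 618 and 590 in ETO2 siRNA cells, against 1661 and 1679 in control siRNA cells. Its log2 ratio was -1.47 ± 0.06 (SD, n = 2; limma adjusted p = 3.29e-10), and -0.88 on its other probe. Itgb3, the β3 chain found on platelets, had -0.63 ± 0.07 (limma adjusted p = 2.35e-06) and Itgav, the αV chain, had -0.26 ± 0.07 (limma adjusted p = 0.00482). The less bright probes of Itgb3 and Itgav had -0.39 and -0.15. Itgav did not pass on processed signals (limma adjusted p = 0.106) or without the array as a block (0.140), which left 2 lower.

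**Figure D5:**
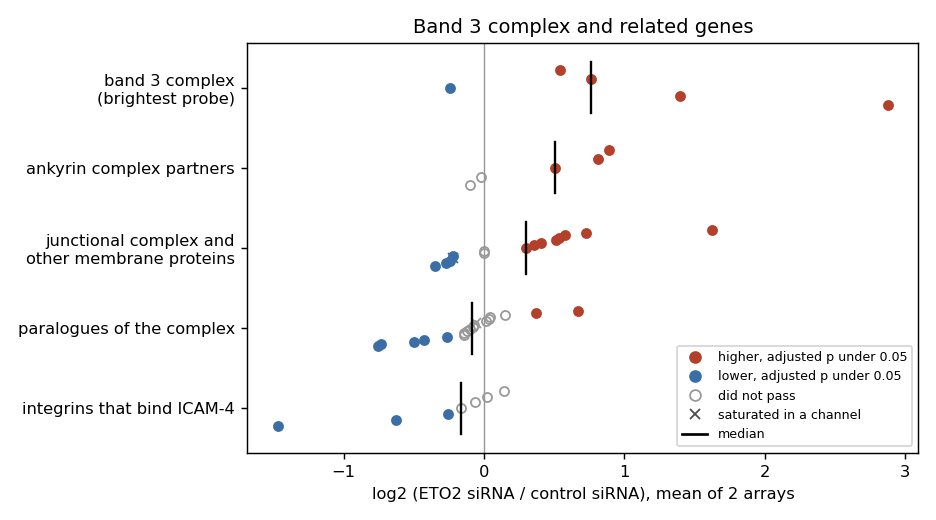
Mean log2 ratio over 2 arrays of the 5 genes of the complex and of 4 lists of related genes, each gene by its brightest probe; filled points passed the limma test, open points did not, crosses mark saturation in a channel and bars mark medians. The complex has 4 genes above 0 and Ank1 below, while the integrins that bind ICAM-4 have a median of -0.17.

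Erythroid regulators of the GATA-1 complex had a median log2 ratio of -0.02. Zfpm1 (the GATA-1 cofactor FOG-1) was saturated in the control siRNA channel on both arrays, so neither a fold nor a direction is given. Of the other 6, Klf1 (an erythroid activator of globin and membrane genes, 0.25 ± 0.09) and Tal1 (the bHLH partner of the complex, 0.40 ± 0.02) were higher, and Gata1 (-0.18 ± 0.01) and Cbfa2t3 were lower (SD, n = 2). None of these 4 passed on processed signals, where Klf1 had 0.29, Tal1 0.28 and Gata1 -0.11. Median centring put Klf1 at -0.39 and Tal1 at -0.20. Relative to the median of all tested probes these were -0.10 and 0.087. Lmo2 and Ldb1, the bridging proteins of the complex, did not pass. The Gata1 probe cannot separate RNA of the fusion from that of the endogenous gene on the information used here.

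Of the 10 nearest measured protein-coding neighbours of the 5 genes, chosen after values were known, 4 passed, close to the 39.3% of all tested probes. The other 6 had log2 ratios of -0.16 to 0.07. Ubtf, a factor of ribosomal RNA transcription beside Slc4a1, had 0.69 ± 0.05 (SD, n = 2), and Cenpq, a centromere protein near Rhag, had 0.31 ± 0.02. Under median centring Cenpq had -0.24, or 0.040 relative to the median of all tested probes. The fallers were Icam1 and Icam5 beside Icam4.

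Promoter sequence was on hand in the RefSeq table of GRCm38.p6 for 3 of the 5 genes, Epb42, Rhag and Icam4, and is shown because GATA-1 and ETO2 act through GATA sites, often near E-boxes and CACCC boxes. Each line gives 250 bases before the gene's start in the direction of the gene. Capitals mark a CACCC box (CACCC, either strand) or a GATA motif, which on either strand is AGATAA or TGATAA or else AGATAG or TGATAG. The windows are chr2:121036878-121037127 on the minus strand for Epb42, chr17:40810899-40811148 on the plus strand for Rhag and chr9:21029182-21029431 on the plus strand for Icam4.
Epb42: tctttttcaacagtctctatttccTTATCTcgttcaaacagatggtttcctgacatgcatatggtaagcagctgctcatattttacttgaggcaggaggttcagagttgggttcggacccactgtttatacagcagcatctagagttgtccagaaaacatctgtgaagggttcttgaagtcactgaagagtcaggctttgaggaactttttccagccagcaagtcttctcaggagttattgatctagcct
Rhag: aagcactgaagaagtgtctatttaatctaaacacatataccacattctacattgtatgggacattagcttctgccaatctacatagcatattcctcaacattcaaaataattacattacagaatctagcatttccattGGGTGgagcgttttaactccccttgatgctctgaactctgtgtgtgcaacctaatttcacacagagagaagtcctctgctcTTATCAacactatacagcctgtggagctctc
Icam4: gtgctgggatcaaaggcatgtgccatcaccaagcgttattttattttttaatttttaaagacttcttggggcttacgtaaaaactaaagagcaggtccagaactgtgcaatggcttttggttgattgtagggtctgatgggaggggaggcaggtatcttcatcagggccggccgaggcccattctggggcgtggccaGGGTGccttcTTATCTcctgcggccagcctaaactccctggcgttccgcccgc

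Each of the 3 windows held 1 GATA motif, and 26.5% of 32851 promoter windows of the same length held 1 or more. It lay 226 bases before the start in Epb42, 31 bases in Rhag and 43 bases in Icam4, in each case on the strand opposite to the gene. Rhag and Icam4 also held 1 CACCC box each, 112 and 53 bases before the start, and Epb42 held none, while 52.0% of windows held 1 or more. The letters CAGATG, the E-box form bound by TAL1, occurred in Epb42 at 212 and 93 bases before the start, once on each strand. Of all windows, 14.4% held 1 or more such matches and 1.32% held 2 or more. Any E-box (CANNTG, which includes CAGATG) was present at 4 places in Epb42 and 1 in Icam4, and 66.2% of windows held 1 or more. These matches are letters in a window, and binding was not measured by the arrays. Epb42 and Icam4 both carried the GATA form read as TTATCT along the gene, and Rhag the form TTATCA.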

How the data were processed

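Labelled RNA of ETO2 siRNA and control siRNA cells on 2-colour arrays was read with Agilent Feature Extraction 9.1.3.1, per the file headers. Spot and local background intensity were deposited in scanner units before any normalization. The processed intensity had its background subtracted and its dyes balanced by that software, per its headers. The log10 ratio the authors deposited runs red over green and was turned to ETO2 siRNA over control siRNA. A p-value per spot was deposited by the authors with each log10 ratio and was not used for calls. How the probes were designed, and on which genome build, is not stated in the labels or headers.

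Mean signals and local median backgrounds were corrected by normexp (offset 50) in limma 3.58.1 (R 4.3.3) and normalized by loess, with control features (1639 of 45018) at weight 0. Outlier spots (10 and 4) were left out and spots of a probe averaged. Ratios were tested against 0 per probe with lmFit and eBayes, two-sided, Benjamini-Hochberg over 24471 probes, threshold 0.05. With 2 arrays the residual degree of freedom is 1 and eBayes added 14.6 with a prior SD of 0.0928; sign permutation cannot go below p = 0.5, so p-values rest on the shared variance. Channel signals were scaled by Aquantile. The array pairs the groups by construction.

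The probes and lists were chosen with earlier results of these data known. Named genes were all probes of the 5 genes, Cbfa2t3, list genes past the threshold if 6 or fewer (otherwise the 4 largest), all ankyrin complex partners, and the 5 nearest probes to Slc4a1 and Epb4.2. The nearest probes were sought outside the complex and only among probes with an ordinary gene symbol. A list is described by counts and a median on each gene's brightest probe. Some list genes enter these summaries but are not reported here by name. Names were updated from RefSeq (GRCm38.p6): 24375 probes by accession, 6301 by symbol, 2426 by synonym, and 8072 kept the array's name. Steps were tested on simulated data. Alternatives were processed signals, offset 0, median centring, the deposited ratio table, no filter, no saturated probes, 1 probe per gene, no block and each array alone.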

Additional observations from a re-analysis of the deposited data

How the results depend on the processing

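Slc4a1, both Epb4.2 probes and Rhag kept their direction and passed under every alternative with a test; their highest adjusted p was 0.0378, for Rhag. Dim probes are limited by the added offset: at offset 0 the Epb4.2 probes had 1.65 and 2.08. The number of arrays limits precision, and a single array allows no test, so counts were not recomputed on one. The cause of the changes below was not tested.

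Processed signals and the deposited ratio table gave the same values: Ank1 A_51_P269375 -0.13, A_52_P655842 -0.15 and Icam4 0.36 no longer passed, nor did Cbfa2t3 at -0.37 and -0.14, while Ank1 A_52_P42857 turned to 0.046 and A_52_P350893 to -0.015. Sptb turned to 0.11 and 0.0066 or 0.0067 on A_51_P452371 and A_52_P490012, and Cd47 A_52_P166435 to -0.022. All probes passing were then 1303 higher and 1227 lower on processed signals, 1235 and 1170 in the deposited table, against 4573 and 5045. In both, 0 band 3 enzymes, 0 junctional genes and 0 regulators were lower, 3 paralogues were lower and 1 regulator was higher.

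Median centring moved the median of all probes to -0.28, and 740 probes were higher and 15446 lower (4.57% of calls higher, against 47.5%). Relative to that median Slc4a1 had 2.55, Epb4.2 1.36 and 1.68, Rhag 0.52, Icam4 0.27 and the Ank1 probes between -0.57 and 0.12. Unshifted, Ank1 A_52_P562817 had -0.67 and A_52_P42857 -0.40, both now past the test, A_52_P350893 had -0.17 and Icam4 -0.011. Also unshifted, Rhd had -0.078, Gypc -0.068, Klf1 -0.39, Tal1 -0.20, Cenpq -0.24, Cd47 -0.15 and -0.58, and Sptb A_52_P672338 -0.29. Relative to the median of all probes Rhd had 0.21, Gypc 0.22, Tal1 0.087, Cenpq 0.040 and Cd47 A_51_P200535 0.14. On the same scale Klf1 had -0.10, Cd47 A_52_P166435 -0.29 and Sptb A_52_P672338 -0.0034. Gapdh had -0.43 and Zfpm1 -0.21, but their control siRNA channel was saturated, so no direction is read. Both are among the lower genes counted next. Higher and lower counts were 2 lower ankyrin partners, 2 and 3 band 3 enzymes, 2 and 9 junctional genes, 1 and 10 paralogues, and 0 and 7 regulators, and 6 integrins were lower.

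With offset 0, Cbfa2t3 A_52_P13802 had -0.22 and did not pass, Cd47 A_52_P166435 turned to -0.0047, 1 integrin was higher and 1 regulator lower. Without the replicate block that pairs channels within an array, 2323 probes were higher and 2632 lower, Cbfa2t3 A_52_P13802 at -0.23 did not pass, 2 junctional genes and 1 regulator were lower, and the counts for the band 3 complex did not change (5 higher, 2 lower). Counts of higher enzymes and regulators include genes with a saturated control channel, and leaving out saturated probes left 1 higher band 3 enzyme. On single arrays Slc4a1 ranged from 2.83 to 2.93, Epb4.2 from 1.19 to 1.60 and from 1.54 to 1.82, Rhag from 0.48 to 1.04, Icam4 from 0.52 to 0.56, the Ank1 probes from -0.27 to -0.21, -0.12 to -0.07, -0.49 to -0.42, -0.12 to -0.11 and -0.10 to 0.12, and Cbfa2t3 from -0.46 to -0.39 and -0.23 to -0.22. Rhag is the called probe that moved most with 1 array, at 0.48 without array 2.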
